A study of Oryza sativa Japonica Group with 9 samples.

Results

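The comparison described here sets rice zygotes against unfertilized egg cells. Its members were chosen by title: the 3 arrays titled as zygotes at about 3 hours after pollination (hap) and the 3 titled as unfertilized egg cells, 6 of the 9 arrays of the series. Only these 6 arrays entered the tests, and each difference was also followed through zygote replicates 1, 2 and 3 separately, to state which changes held in every zygote array.

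The plants were wild-type rice of cultivar Katy (Oryza sativa, japonica subspecies), grown in a greenhouse. Egg cells were taken at anthesis, 0 hap, and zygotes came from florets pollinated on the plant, at 2.5 to 3 hap by the series text. About 100 cells, removed from excised ovules without enzymes, were pooled for each sample. The submitters put the RNA of a cell at 25 pg and that of a pool at 2.5 ng. It was amplified through a 2-cycle cDNA synthesis before it was hybridized to an Affymetrix rice genome array. With pooled cells, fewer cells carrying a transcript and less transcript per cell cannot be told apart. The labels speak of biological replicates but also of "biological technical" ones and do not say that replicates came from separate plants, so the p-values measure only the spread between these samples, which may be technical.

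A free-text field of the labels goes against the titles: it speaks of whole seedlings for the egg arrays and of isolated sperm cells for the zygote arrays. The groups used here follow the titles, the stage characteristic and the series text. The array annotation gave no gene for the egg cell marker list (EC1-type and RKD genes), so the egg identity could not be checked on its defining markers. Of 13 photosynthetic tissue genes with usable signal, 2 had all zygote arrays above and 2 had all zygote arrays below all egg arrays, and their summed signal was 19253 to 27853 in egg cells and 6469 to 19867 in zygotes. OsrbcS, a small subunit of Rubisco that is very abundant in seedlings, had signals of 140.2, 198 and 179 in the egg arrays and 204, 402 and 143 in the zygote arrays, in each case replicates 1 to 3 in that order, as in all lists of values below. CAB2R, a chlorophyll-binding protein of the light-harvesting antenna, was far brighter, at 9979.9, 16005 and 16656 in egg cells against 9624, 1201 and 10557 in zygotes. The sperm and pollen list came down to a single gene, annotated as GPA3, a symbol outside those the list was written for. It entered by a match on its names alone, so sperm content could not be checked on it. Its signals were 735, 666 and 640.1 in egg cells and 1245, 1163 and 745 in zygotes, all above the egg arrays. Of 14 ovule wall and nucellus genes 1 had all zygote arrays above all egg arrays, and of 11 endosperm genes 2 had all of them below. Over all genes these shares were 10.8 percent above and 10.4 percent below, so counts on marker lists this small cannot check tissue identity.

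The egg cell of a flowering plant is a quiescent haploid cell that carries a store of transcripts made before fertilization. A pollen tube delivers a pair of sperm cells, of which 1 fuses with the egg, first by the cytoplasm and then by the nucleus, and the resulting zygote builds a cell wall, polarizes and prepares for its first division while maternal transcripts are used or cleared and new transcription begins. Abscisic acid (ABA), named several times below, is the hormone of drought and dormancy. It acts by silencing type 2C protein phosphatases (PP2Cs), which frees SnRK2 kinases to activate bZIP transcription factors, and these switch on genes for protective hydrophilic proteins such as the RAB16 dehydrins.

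The zygote arrays did not resemble each other as the egg arrays did. The log2 signals of 28597 probe sets, the brighter part of the array, correlated at 0.933 to 0.973 between egg arrays. Against the egg arrays the coefficients were 0.8998 to 0.917 for zygote replicate 1, 0.854 to 0.858 for replicate 3 and 0.648 to 0.656 for replicate 2, while the zygote arrays correlated at 0.654 to 0.846 with each other. Zygote replicate 2 also stood apart in the control probe sets: its hybridization spike cre read 894039 against 86649 and 276325 in the other zygote arrays and 26992 to 39673 in egg cells, and its 3′-to-5′ ratio of control transcripts was 7.47 on the log2 scale against 5.77, 6.51 and, in egg cells, 5.81 to 6.21. The ratio of the dap poly(A) spike, added before amplification, to cre was 0.594 to 0.890 in zygotes and 0.188 to 0.306 in egg cells, and 18S ribosomal RNA read 1886 to 8275 and 14666 to 24657. How far these measures bear on the differences between stages was not tested.

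**Figure D1:**
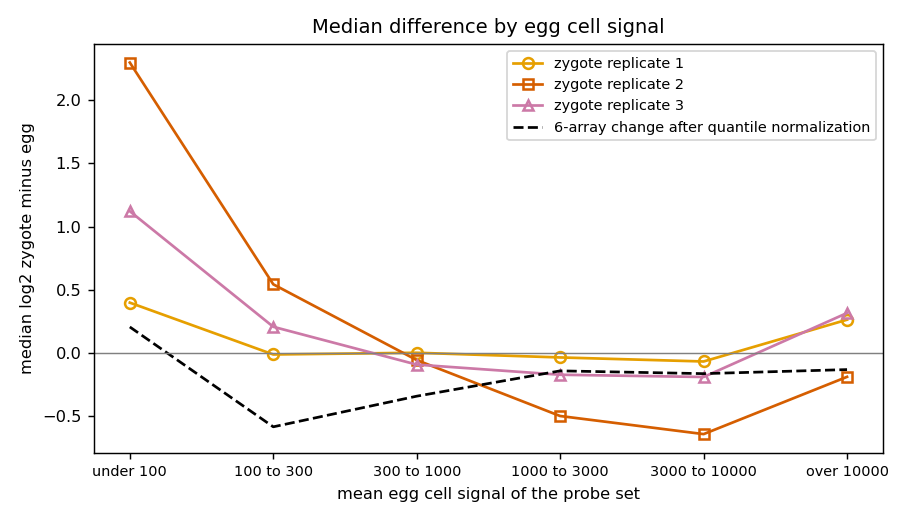
Median log2 difference between each zygote array and the mean of the egg arrays (vertical axis) for probe sets grouped by their mean egg cell signal (horizontal axis), with the change over the 6 arrays after quantile normalization as a dashed line. Probe sets under 100 lay above the egg mean in all 3 zygote arrays, by 0.40, 2.30 and 1.12, and those of middle signal lay closest to it in zygote replicate 1. Probe sets were kept on the mean of all 6 arrays, so those under 100 could be kept through their zygote signal.

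Probe sets that were dim in egg cells read higher in zygotes as a class, and by different amounts in the 3 zygote arrays. Over 7370 probe sets with an egg mean under 100, the median log2 difference was 0.40, 2.30 and 1.12 in zygote replicates 1 to 3. Over 3062 probe sets between 3000 and 10000 it was -0.07, -0.64 and -0.19. The median over all 28597 was 0.06 as deposited and -0.18 after quantile normalization, which gives every array the same distribution. Below, the value after quantile normalization is given beside each named gene whose groups were apart as deposited and overlapped after it, and beside some others.

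The test used log2(signal + 15), and folds called on the offset scale below are ratios of signal + 15. In the 6 arrays, 2 probe sets passed an adjusted p of 0.05 in limma's moderated test (Benjamini-Hochberg over all 28597), both lower in zygotes, 0.00699 percent of those tested, and 0 probe sets (0 percent) passed as higher. At an unadjusted p under 0.05 there were 3963, of which 2250 were higher and 1713 lower. Without a test, all 3 zygote arrays lay above all 3 egg arrays for 4039 probe sets, 14.1 percent, and below them for 2531, 8.85 percent. With 1 probe set standing for each of 15297 genes, these shares were 10.8 percent above and 10.4 percent below, and these are the figures against which the gene lists are read.

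Few large differences held in every zygote array. Each zygote array was at least 2-fold above every egg array for 231 probe sets, 0.808 percent, and at least 2-fold below for 162, 0.566 percent. By contrast, 8658 probe sets were at least 2-fold above every egg array in some zygote array, of which 4540 were so in replicate 2 only, 2152 in replicates 2 and 3, 1023 in replicate 3 only and 376 in replicate 1 only. In the other direction there were 7961, with 3862 in replicate 2 only, 1463 in replicate 3 only, 1231 in replicate 1 only and 759 in replicates 2 and 3. Of the 231 held above, 207 had an egg mean under 100, where a probe set could be kept through its zygote signal. The medians of the 231 were 26.3 in egg cells and 239 in zygotes, and 182 still had no overlap after quantile normalization. The 162 held below were brighter in egg cells than those held above, with medians of 776 in egg cells and 145 in zygotes. All 162 kept non-overlapping groups after quantile normalization. Those held below included 20 genes with an informative symbol and those held above included 1.

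**Figure D2:**
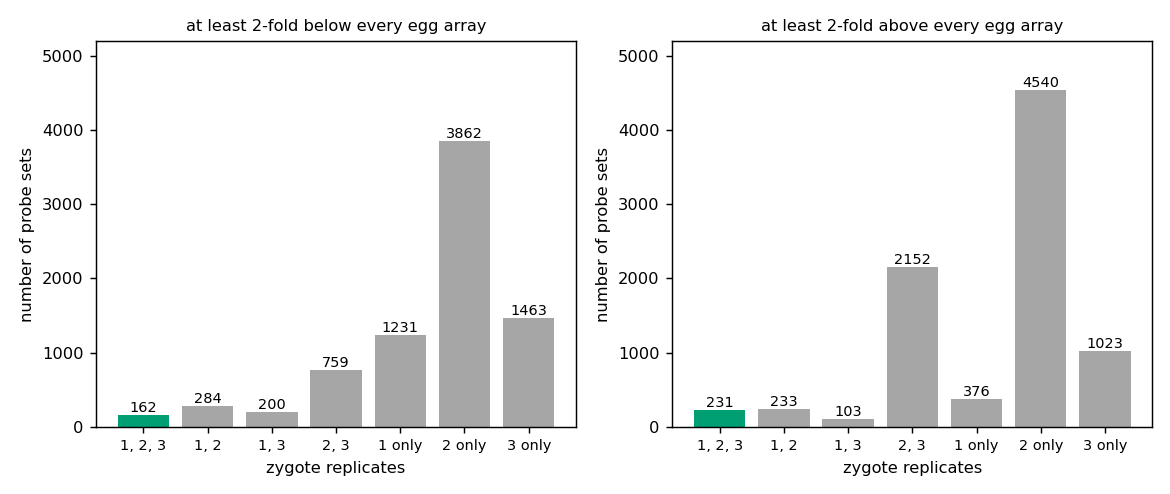
Number of probe sets at least 2-fold below (left) or above (right) every egg array, by the zygote replicates in which that was so. The bars for all 3 zygote replicates stand at 162 and 231, and those for replicate 2 only are the tallest, at 3862 and 4540.

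Both probe sets past the threshold had nearly the same level in the 3 zygote arrays. LOC4331282, a protein-coding gene with no informative symbol in the tables used, read 4474, 3969 and 4822 in egg cells and 509, 569.9 and 512 in zygotes, a log2 difference of -3.02 ± 0.30 (SE, 3 arrays in each group; limma adjusted p = 0.0414). Its egg arrays were all above 3900 and its zygote arrays all under 600, so the fall held in each zygote array. The other probe set is paired with no gene in the annotation table used here. Its signals were 15988, 9375 and 14650.0 in egg cells against 1984, 1485 and 1407 in zygotes, a difference of -3.005 ± 0.30 (limma adjusted p = 0.0414), and it too fell in each zygote array. A second probe set with the same stem in its design name was at 3927, 4790 and 2925 in egg cells and 957, 999 and 624 in zygotes. Both calls were lost in limma when any egg array or zygote replicate 3 was left out, with adjusted p between 0.162 and 0.336 there, and the probe set without a gene was at 0.0502 without zygote replicate 2. Over the 14 alternative fits the adjusted p of each ran from 0.00174 to 0.336, and 6 of the 14 were under 0.05.

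The widest gap of a named gene was in the ABA-induced dehydrins, although it missed the threshold over all probe sets. RAB21, the RAB16A dehydrin that accumulates in rice under ABA, drought and salt, read 9693, 6948 and 5619 in egg cells. In zygotes it read 120.3, 29.2 and 343, so that every zygote array was at least 15.7-fold below the lowest egg array on the offset scale. The log2 difference was -5.81 ± 0.67 (limma adjusted p = 0.0561), and over the 14 alternative fits the adjusted p ran from 0.00245 to 0.389, with 7 of them under 0.05. The lowest zygote value was in replicate 2 and the highest in replicate 3, and after quantile normalization the difference was -5.92. A second RAB21 probe set, read at 2182, 1744 and 1221 and then at 139, 131 and 371, also had every zygote array below every egg array.

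RAB16B, another dehydrin of the family, was at 2193, 628 and 494 in egg cells and 49.4, 16.1 and 83.6 in zygotes. The groups did not overlap, but the egg arrays themselves were spread, replicate 1 being the highest, and the difference of -3.94 ± 0.73 missed the threshold (limma adjusted p = 0.1999). The other family members overlapped. RAB16C read 612, 236 and 127 in egg cells against 111, 762 and 39.9 in zygotes. RAB16D read 286, 432 and 364 in egg cells against 247, 637 and 154 in zygotes. In both, zygote replicate 2 lay above every egg array and replicates 1 and 3 lay below every egg array. RAB16 genes are similar in sequence, and how far their probe sets share targets was not tested.

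Among all 11 genes of the ABA-induced desiccation list, 1 had every zygote array above and 3 had every zygote array below the egg arrays, beside 10.8 and 10.4 percent of all genes, and 0 passed the threshold; the list's median was -0.44 against -0.08 for all genes. Beside RAB21 and RAB16B, the list had DRR1 below, also called LTI6A and induced by cold. It read 3196, 3382 and 2937 in egg cells against 1657, 703 and 1352 in zygotes. The 1 above was Osr40c1, an ABA-responsive lectin-domain protein of the r40 family and the brightest of the list, at 22590.1, 28965 and 22806 in egg cells and 46963, 53019 and 105824 in zygotes. Its groups did not overlap either before or after quantile normalization, where its difference was 0.41 in place of 1.38 ± 0.32. The others, EM, LEA19, rab25, Dhn1 and DRR2, had overlapping groups. Dhn1, a dehydrin with strong signal at both stages, read 14214, 18878 and 13776 in egg cells against 12919, 12958 and 27255 in zygotes, with replicates 1 and 2 just below the egg range and replicate 3 above it.

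**Figure D3:**
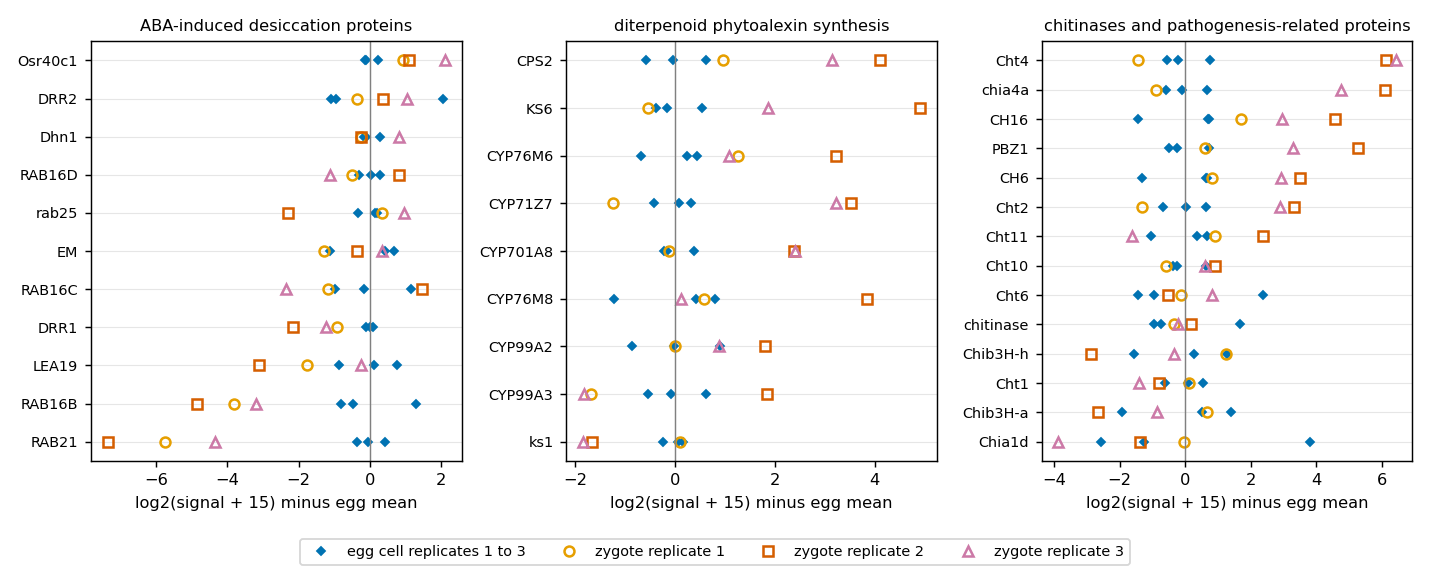
Each gene's log2(signal + 15) less the mean of its egg arrays, for the genes of 3 lists, with egg replicates as filled diamonds and zygote replicates 1, 2 and 3 as open circles, squares and triangles. RAB21 and RAB16B lie to the left in all 3 zygote arrays, whereas Cht4 and chia4a lie far to the right in replicates 2 and 3 only.

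The list of ABA signalling genes had more members below than above. Of 71 genes, 11 had every zygote array below and 4 every zygote array above the egg arrays. These were 15.5 and 5.6 percent, beside 10.4 and 10.8 percent of all genes. The median was -0.33 against -0.08 for all genes, and 0 passed the threshold in limma. Most of the 11 were PP2C phosphatases, a large family of which only some members act on the ABA pathway. OsPP2C47 read 5198, 7146 and 6922 in egg cells and 2115, 1049 and 2702 in zygotes, a difference of -1.80 ± 0.38 (limma adjusted p = 0.208). OsPP2C10, a dimmer member, was at 441, 329 and 510.4 in egg cells against 174, 73.7 and 11.7 in zygotes. PP2C68 stood at 1637, 5049 and 945 in egg cells, where replicate 2 was the highest, and at 531, 755 and 604 in zygotes. In each of these the groups did not overlap. In the kinase arm, OsSAPK4, an SnRK2 kinase, read 2072, 2089 and 2109.6 in egg cells against 1044, 1288 and 1397 in zygotes, also without overlap. The 4 genes above were PP2Cs as well, among them OsPP2C72 at 2130.1, 2561 and 2709 in egg cells against 4861, 6185 and 4244 in zygotes.

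At the level of bZIP factors, OsbZIP37 was close to the dimmest probe sets in the zygote arrays. It read 462, 368 and 426 in egg cells and 12.3, 87.8 and 8.24 in zygotes, a difference of -3.42 ± 0.73 (limma adjusted p = 0.208). Replicate 2 was higher than replicates 1 and 3, but all 3 were below every egg array. Of the 17 bZIP genes 5 had every zygote array above, against 1 below, beside 10.8 and 10.4 percent of all genes. BZIP50, a factor of the endoplasmic reticulum stress response, read 438, 503 and 318 in egg cells against 556, 989 and 1413 in zygotes.

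Other named genes lower in every zygote array belonged to several cell functions. Rf2, a mitochondrial glycine-rich protein known as a fertility restorer of male-sterile rice, had an egg signal that varied little, 7325, 7288 and 7575. Its zygote signals were 839, 1798 and 1556, lowest in replicate 1, and the difference was -2.46 ± 0.33 (limma adjusted p = 0.0993; 0.00379 to 0.785 over the 14 alternative fits). OsPDIL2-3, a protein disulfide isomerase of the secretory pathway, read 4383, 3336 and 3183 in egg cells against 653, 848 and 1097 in zygotes, a difference of -2.07 ± 0.33 (limma adjusted p = 0.159). The nearest egg and zygote arrays were 4.03-fold apart for Rf2 and 2.88-fold apart for OsPDIL2-3 on the offset scale. Of the 4 mitochondrial genes 3 had every zygote array below, beside 10.4 percent of all genes. COX5c, a subunit of cytochrome c oxidase, was close at 11065, 9641 and 11289 in egg cells against 7312, 6739 and 9097 in zygotes, while cob, the organelle-encoded cytochrome b, read 149.8, 147 and 112 in egg cells against 7.30, 47.1 and 6.28 in zygotes. AOX1, the alternative oxidase, overlapped at 2021, 1225 and 1109 in egg cells against 1205, 919.8 and 1234 in zygotes.

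Signalling and metabolic enzymes followed. OsWNK4 and OsWNK9 are WNK ("with no lysine") kinases: OsWNK4 read 8703, 6224 and 7813 in egg cells and 3009, 3065 and 2746 in zygotes, with closely matched zygote arrays. OsWNK9 read 11573, 7775 and 13269 in egg cells against 4651, 2146 and 2751 in zygotes. HXK5, a hexokinase that also senses glucose, was tight in egg cells at 2468, 2438 and 2337 and stood at 1145, 546 and 657 in zygotes, a difference of -1.68 ± 0.36. CYP701A19, also called OsKO2 or D35 and an ent-kaurene oxidase of gibberellin synthesis, read 1191, 1540.2 and 869 in egg cells against 248, 186 and 366 in zygotes. Its dimmer probe set overlapped, at 504, 513 and 383 in egg cells against 99.9, 459 and 12.5 in zygotes. PLA2-III, a secreted phospholipase A2, was at 9436, 7322 and 6443 in egg cells against 2359.9, 1865 and 3666 in zygotes. CYCL1-1, an L-type cyclin of a class tied to transcription and splicing, read 4440.4, 4199.6 and 3791 in egg cells against 880.5, 1493 and 1949 in zygotes. With CYP701A19 taken at its brighter probe set, the groups of these 6 genes did not overlap. Their limma adjusted p lay between 0.1999 and 0.225. Zygote replicate 2 was lowest for OsWNK9, HXK5, CYP701A19 and PLA2-III, and replicate 1 for CYCL1-1.

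**Figure D4:**
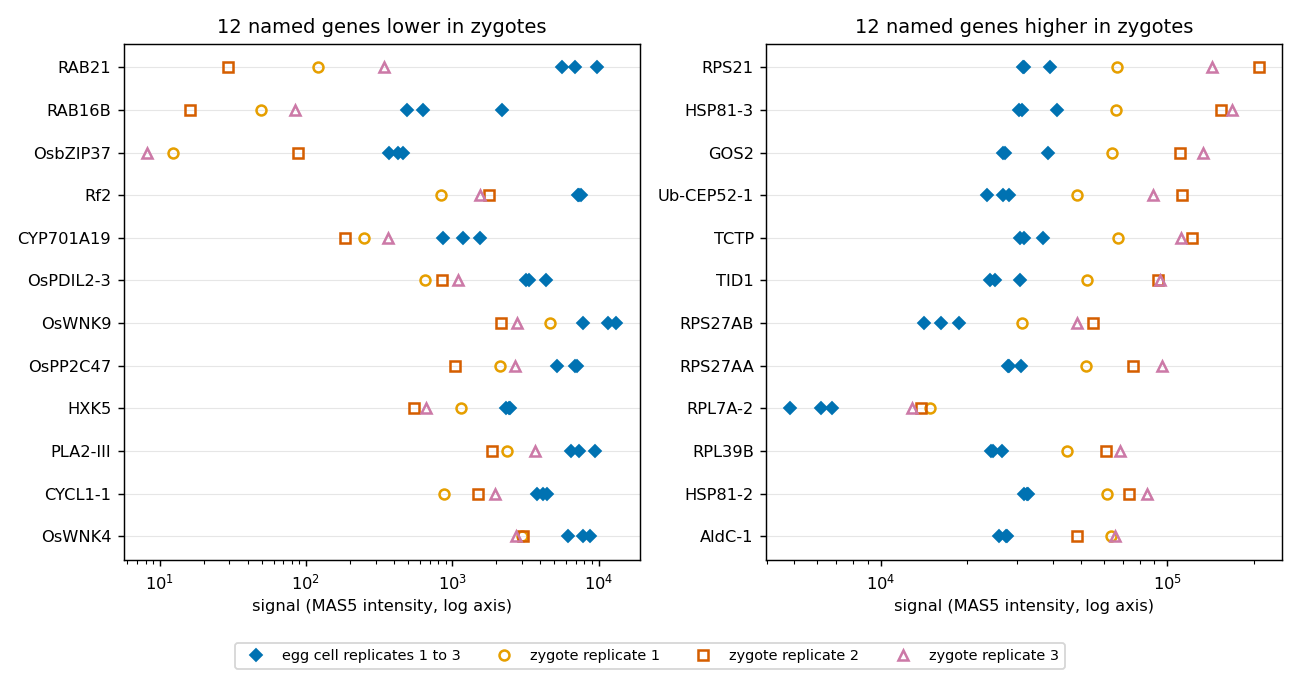
Signal in every array, on a log axis, of the 12 named genes lower in zygotes (left) and the 12 higher (right) with the smallest p-values, egg arrays as filled diamonds and zygote replicates as open symbols. The groups are apart for all 24, by the widest margin for RAB21, whose egg arrays lie between 5619 and 9693 and whose zygote arrays lie between 29.2 and 343.

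The list of named genes at least 2-fold below in each zygote array also held LIR1, a light-induced chloroplast protein, at 269, 509 and 329.6 in egg cells against 67.6, 25.3 and 20.0 in zygotes. OsTIP4;1, a water channel of the vacuole membrane, read 1793, 3261 and 1583 in egg cells and 522, 26.3 and 469.5 in zygotes, with replicate 2 far below the others. A dimmer OsTIP4;1 probe set overlapped, with a difference of 0.42. OsSGS3, a cofactor of RNA-dependent RNA polymerase in the trans-acting small RNA pathway, stood at 2021, 1641 and 1355 in egg cells and 278, 30.0 and 488 in zygotes. OAT, ornithine aminotransferase, read 187, 279.7 and 97.0 in egg cells and 1.42, 23.2 and 14.4 in zygotes. SMAX1L, a relative of the repressor that karrikin signalling degrades, read 629.7, 845 and 796 in egg cells and 115, 252 and 172 in zygotes. The zinc finger proteins OsC3H14 and OsC3H34, the RNA-binding protein RBP-P, the pectate lyase-like OsPL10a, SAT1 and SAT2 made up the rest with the genes already given. Apart from the dimmer OsTIP4;1 probe set, each of these had its groups apart by at least 2-fold, and 0 of them passed the 6-array threshold in limma.

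Among genes with no informative symbol, a few had tight groups that were far apart, and 1 is named here for each direction after its values were seen. LOC4343334 read 5341, 4921 and 6087 in egg cells and 898, 1174 and 851 in zygotes, a difference of -2.47 ± 0.29 (limma adjusted p = 0.0561). In the other direction LOC4338034 stood at 319, 549 and 532 in egg cells and 2183, 1939.7 and 1835 in zygotes, a difference of 2.09 ± 0.36 (limma adjusted p = 0.1999). Its 3 zygote arrays agreed within a small range and were all at least 3.28-fold above the highest egg array on the offset scale.

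Only CML27, a calmodulin-like calcium sensor, was a named gene at least 2-fold above in each zygote array. This was so of a dimmer probe set, which read 33.6, 37.9 and 44.0 in egg cells and 139.6, 647 and 265 in zygotes, a difference of 2.52 ± 0.70 (limma adjusted p = 0.312). The gene's brightest probe set overlapped, at 4307, 14841 and 6594 in egg cells against 13457, 4885 and 15416 in zygotes. In the dimmer probe set the egg arrays were in the dim range where probe sets as a class read higher in zygotes. Probe sets in that range could be kept through their zygote signal. The order of the zygote arrays, with replicate 2 highest and replicate 1 lowest, was the order of that class. The part of the dim range in this result was not tested.

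The named genes higher in zygotes with the smallest p-values were bright transcripts. They were TCTP, GOS2, the ribosomal protein genes RPS21, RPL7A-2 and RPL39B, the ubiquitin fusions RPS27AA, RPS27AB and Ub-CEP52-1, the chaperones HSP81-2 and HSP81-3, the tubulin TID1 and the aldolase AldC-1. The 12 all had every zygote array above every egg array, with a limma adjusted p of 0.1999, and so none passed. The brightest rice probe set of each array read 43328 to 51298 in egg cells and 89921, 335275 and 199944 in zygotes. Of the probe sets over 10000 in egg cells, 30.7 percent had every zygote array above. How far this bears on the 12 genes was not tested. TCTP, the translationally controlled tumour protein, a growth-related protein found throughout eukaryotes, read 30712, 36796 and 31693 in egg cells and 67082, 121577 and 111811 in zygotes, a difference of 1.56 ± 0.27. GOS2, the translation initiation factor eIF1, read 27233, 38403 and 26788 in egg cells against 63955, 111021 and 133436 in zygotes. TID1, an alpha-tubulin, read 24038, 30734 and 24976 in egg cells against 52588, 92825 and 94329 in zygotes. In all 3 genes the lowest zygote array was replicate 1, and replicates 2 and 3 were higher. After quantile normalization the differences of TCTP and GOS2 were 0.06 and 0.24 with overlapping groups, whereas TID1 kept its groups apart at 0.36. Probe sets of a gene did not always share a direction: both dimmer TID1 probe sets had every zygote array above, while GOS2 had dimmer probe sets at -1.23 and -0.50, and TCTP had 1 at 0.86 and 1 at -0.29.

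Of 20 cytosolic ribosomal protein genes 11 had every zygote array above and 0 had every zygote array below, beside 10.8 and 10.4 percent of all genes, and the median of the list was 0.71, 0.45 and 0.53 in zygote replicates 1 to 3. After quantile normalization 4 were above and 1, CYC07 (ribosomal protein S3a), was below, and the median over the 3 arrays was 0.21 in place of 0.54. On that scale 1367 of all 15297 genes were above and 1674 below, with a median of -0.17. The list is bright, with a median egg signal of 14235, and of the 787 probe sets over 10000 in egg cells 30.7 percent had every zygote array above; its part in the result was not tested. RPL7A-2 differed by about as much under either scaling: it read 6763, 6173 and 4827 in egg cells and 14833, 13859 and 12824 in zygotes, with the 3 zygote arrays close together, a difference of 1.23 ± 0.25 as deposited and 1.28 after quantile normalization. RPS21 was the farthest as deposited, at 31296, 38952 and 31494 in egg cells against 66446, 208569 and 142856 in zygotes, but its difference after quantile normalization was 0.07, with overlapping groups. A second RPS21 probe set had every zygote array above the egg arrays as well, and another had every zygote array below, at 2375, 1901 and 1799.5 and then 1592, 1122 and 799.9. The ubiquitin fusions RPS27AA, RPS27AB and Ub-CEP52-1, from which ribosomal proteins are released, were likewise above in every zygote array, RPS27AB at 16199, 18789 and 14199.9 in egg cells against 30985, 55125 and 48508 in zygotes, with 0.80 after quantile normalization. RPS27AA, Ub-CEP52-1 and RPL39B overlapped after it, at 0.10, 0.38 and 0.17. Of 13 translation factors 4 were above and 1 below, and after quantile normalization 1 was above and 1 below.

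The chaperone list had 8 of 40 genes above in every zygote array and 0 below, and 4 above after quantile normalization. As deposited, the shares of all genes were 10.8 percent above and 10.4 percent below. After quantile normalization 1367 of all 15297 genes were above and 1674 below. HSP81-3, a cytosolic HSP90 chaperone, read 31021, 41100.0 and 30276 in egg cells and 66179.5, 154237 and 167383 in zygotes. Its difference was 1.82 ± 0.36 as deposited and 0.08 after quantile normalization, with overlapping groups. The 3 other probe sets of the gene were mixed. The first read 12837, 8778 and 13109 in egg cells and 7991, 1834 and 1459.6 in zygotes, with every zygote array below. The others stood at 1.02, with every zygote array above, and at -0.76, with overlapping groups. HSP81-2 was at 31737, 32354 and 32526 in egg cells against 61602, 73601 and 84581 in zygotes, a difference of 1.17 ± 0.22 as deposited that turned to -0.29 after quantile normalization, with overlapping groups. HSP17.7, a small heat shock protein, read 586, 669 and 758 in egg cells against 821, 5964 and 2026 in zygotes, where replicate 2 was the highest by far.

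Sugar metabolism was divided. Of 28 glycolysis and fermentation genes 6 were above and 2 below in every zygote array. These were 21.4 and 7.1 percent, beside 10.8 and 10.4 percent of all genes. FBA1, a fructose-bisphosphate aldolase, read 12971, 13847 and 15169 in egg cells and 40512, 25815 and 56277 in zygotes, a difference of 1.48 ± 0.30 (limma adjusted p = 0.1999) that was 1.03 after quantile normalization, with no overlap in either case. AldC-1, a second aldolase gene, read 25855, 27479 and 27419.8 in egg cells against 63568, 48358 and 65609.7 in zygotes, and differed by 0.14 with overlapping groups after quantile normalization; its dimmer probe sets overlapped as deposited. The 2 genes below were HXK5, given above, and OsSUS4, a sucrose synthase, at 2200.4, 1468 and 1281 in egg cells against 929, 735 and 1064 in zygotes.

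Genes of DNA replication and methylation included several that were higher in each zygote array. MET1 (MET1-2 among its synonyms), the maintenance DNA methyltransferase that copies CG methylation to the new strand, read 1932, 1766 and 2597 in egg cells and 4213, 4947 and 6490.4 in zygotes. All 3 zygote arrays were clearly above, the difference was 1.30 ± 0.30 (limma adjusted p = 0.247), and it was 1.47 after quantile normalization. The other gene listed as MET1 was dimmer and overlapped, at 615, 238 and 274 in egg cells and 224, 260.0 and 67.8 in zygotes. CMT3, a chromomethylase, read 668, 526 and 727 in egg cells against 815, 1725 and 904 in zygotes. MCM5, a subunit of the replicative helicase, read 2668, 1790.1 and 2504 in egg cells against 2936, 8556 and 4885 in zygotes. MCM3, another subunit, read 3044, 2191 and 3664 in egg cells against 3836, 4021 and 5976 in zygotes. The sliding clamp PCNA, listed as Cyclin, read 4931, 3774 and 5039 in egg cells against 6083, 8329.8 and 6618 in zygotes. The groups of CMT3, MCM5, MCM3 and PCNA did not overlap, and zygote replicate 1 was the lowest zygote array for each. The nearest egg and zygote arrays of MCM5 were only 1.10-fold apart on the offset scale. Of the 30 replication genes 5 were above and 3 below. The share above was 16.7 percent, beside 10.8 percent of all genes, and the share below was close to their 10.4 percent. The median of the list was 0.21, 0.45 and -0.05 in zygote replicates 1 to 3, so replicate 3 did not follow. For all genes it was 0.02, -0.15 and 0.04. The 3 below were OsRPA70a, a single-strand binding subunit, at 2504, 1962 and 2502 in egg cells against 1107, 1475 and 1108 in zygotes, the topoisomerase TOP3B and the flap endonuclease FEN1A.

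Genes of the small RNA and chromatin machinery had 3 of 31 above and 4 below. These were 9.7 and 12.9 percent, close to the 10.8 and 10.4 percent of all genes. AGO1 (AGO1C), an Argonaute that binds microRNAs, read 1991, 1226 and 2015 in egg cells and 1136, 646 and 459 in zygotes. OsRDR2, an RNA-dependent RNA polymerase of the heterochromatic small RNA pathway, was at 3392, 2867 and 3552 in egg cells against 2422, 413 and 2277 in zygotes, lowest in replicate 2. EZ1, a Polycomb histone methyltransferase, read 3396, 2828 and 3088 in egg cells against 2118, 1194 and 1486 in zygotes. AGO1B was the brightest gene of the list, at 28981, 30494 and 28842 in egg cells against 51523, 13445 and 26970.3 in zygotes, with overlapping groups, while a dimmer probe set of it had every zygote array below.

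Cell cycle genes had 3 of 44 above in every zygote array and 3 below, 6.8 percent each, beside 10.8 and 10.4 percent of all genes. CYCB2, a mitotic B-type cyclin, read 1448, 848 and 1982 in egg cells and 309.8, 827 and 785 in zygotes, all below, with overlapping groups after quantile normalization, at -0.98. Another gene under the same symbol overlapped as deposited. The cyclin-dependent kinase CDC2-1 was at 4584, 4565 and 5257 in egg cells against 3884, 1824 and 3252 in zygotes, with replicate 2 lowest. CYCA2-1, an A-type cyclin, was above at 1149, 813 and 1245 in egg cells against 1370.4, 1401 and 1677 in zygotes.

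Among the chitinase and pathogenesis-related genes, some were far above the egg arrays in zygote replicates 2 and 3 and not in replicate 1. PBZ1, a pathogenesis-related protein of the PR-10 family, read 338, 135 and 165 in egg cells and 311, 8245 and 2065 in zygotes, so that replicate 1 lay inside the egg range. Cht4, a chitinase, read 31.0, 74.8 and 20.8 in egg cells against 4.62, 3711 and 4529 in zygotes. chia4a, another chitinase, read 129, 45.0 and 69.3 in egg cells against 33.9, 6216 and 2430.2 in zygotes. In both, replicate 1 was below the lowest egg array and replicates 2 and 3 were far above the highest. Both had an egg mean under 100, the range in which a probe set could be kept through its zygote signal. Of the 14 chitinase and pathogenesis-related genes 2 were above in every zygote array, and 0 were below, beside 10.8 and 10.4 percent of all genes. CH16, a further chitinase, read 26.4, 165 and 169 in egg cells against 348, 2659 and 849 in zygotes, and CH6 had the same order of arrays at a lower level. CH16 kept its groups apart after quantile normalization, at 2.89, and CH6 overlapped, at 1.92. The list's median was 0.05, 1.65 and 0.71 in zygote replicates 1 to 3, and over the 3 arrays it was 0.44 as deposited and -0.14 after quantile normalization. The list is dim, with a median egg signal of 129, and probe sets between 100 and 300 in egg cells read -0.01, 0.54 and 0.21 in the same arrays and those under 100 read 0.40, 2.30 and 1.12; its part in the result was not tested.

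Diterpenoid phytoalexin genes, which make the momilactones and phytocassanes of rice, had their highest median in zygote replicate 2. Only 9 of 19 genes were bright enough over the 6 arrays to keep. A gene dim in egg cells could be kept through its zygote signal, so the list favours higher zygote values by construction. The median of the 9 was -0.01, 3.23 and 1.07 in zygote replicates 1 to 3. It was 0.02, -0.15 and 0.04 for all genes, and 0.40, 2.30 and 1.12 for all kept probe sets under 100 in egg cells. The median egg signal of the list was 43.9, and its median over the 3 arrays was 1.55 as deposited and 1.00 after quantile normalization; the part of the dim range in this result was not tested. The brightest member, ks1, a kaurene synthase family gene, lay the other way in replicates 2 and 3, at 2504, 1888 and 2331 in egg cells against 2392, 694 and 609.8 in zygotes. CPS2, the copalyl diphosphate synthase at the head of the phytocassane route, read 28.6, 53.4 and 14.9 in egg cells and 72.1, 760.0 and 379 in zygotes. CYP76M6, a cytochrome P450 of the pathway, read 24.1, 70.5 and 59.1 in egg cells against 136, 575 and 117 in zygotes. These were the 2 of the 9 genes above in every zygote array, 22.2 percent beside 10.8 percent of all genes. Zygote replicate 1 lay nearest to the egg arrays for CPS2 and replicate 3 for CYP76M6. After quantile normalization CPS2 kept its groups apart, at 2.41, and CYP76M6 overlapped, at 1.16. The P450 CYP71Z7, at 35.7, 20.9 and 44.9 in egg cells against 5.09, 534 and 432 in zygotes, was high in replicates 2 and 3 alone. OsWRKY76, a pathogen-induced regulator of these defences, differed from this pattern. It read 125, 680.0 and 124 in egg cells against 1616, 1211 and 3566 in zygotes, above every egg array in all 3 zygote arrays and highest in replicate 3, with egg replicate 2 apart from the other egg arrays, a difference of 3.01 ± 0.69 (limma adjusted p = 0.244; 2.82 after quantile normalization). It was the only 1 of 6 WRKY genes whose groups did not overlap. That was 16.7 percent above and 0 percent below, beside 10.8 and 10.4 percent of all genes.

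The hormone lists held more genes below than above for auxin, with 10 of 55 below and 3 above in every zygote array. These were 18.2 and 5.5 percent, beside 10.4 and 10.8 percent of all genes. ILL5, an amidohydrolase of the family that frees auxin from conjugates, read 1917, 2786 and 2146 in egg cells and 978, 959 and 483 in zygotes. ARF1, an auxin response factor, read 10183, 10352 and 8268 in egg cells against 5244, 3568 and 4824 in zygotes. ARF24 read 4413, 3178 and 4903 in egg cells against 2991, 1240.2 and 1040.4 in zygotes, and all 3 genes had every zygote array below. IAA19, a repressor of the Aux/IAA family, was 1 of the 3 above, at 666, 677 and 349 in egg cells against 1111, 1794 and 1483 in zygotes. Among 38 cytokinin, ethylene and gibberellin genes 4 were below and 3 above, 10.5 and 7.9 percent. CKX11, a cytokinin oxidase, was below at 3729, 3021 and 4219.8 in egg cells against 1704, 814 and 2036 in zygotes. Its dimmer probe set overlapped, with a difference of 0.04. Of 28 jasmonate genes 3 were below and 2 above, 10.7 and 7.1 percent. AOS, the allene oxide synthase that commits lipid to jasmonate, read 1727, 3646 and 2179 in egg cells against 1315, 486 and 1157 in zygotes, while EG2, the repressor JAZ1, read 17209, 20578 and 16799 in egg cells against 24852, 41001 and 48788 in zygotes, and overlapped after quantile normalization, at 0.40.

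Wall and cytoskeleton genes gave 3 of 55 above and 8 below, and 9 of 71 above and 6 below. These were 5.5 and 14.5 percent, and 12.7 and 8.5 percent, beside 10.8 and 10.4 percent of all genes. CSLC1, a glucan synthase of the class that makes the xyloglucan backbone, read 5494, 6264 and 4247 in egg cells and 3101, 1084 and 1559 in zygotes. CSLF7, of the mixed-linkage glucan synthase family, was dim at 40.2, 6.62 and 21.4 in egg cells against 64.0, 421 and 229.9 in zygotes. The actin gene AC7 read 11261, 12836 and 13310.4 in egg cells against 7430.2, 5843 and 4687 in zygotes, all below, whereas AC2 read 2695, 3603 and 2691 in egg cells against 3974, 6967 and 4973 in zygotes, all above. BUI1, a formin that nucleates actin filaments, read 1159.8, 609 and 1159 in egg cells against 528, 19.3 and 268 in zygotes, also below. Of 82 calcium signalling genes 9 were above and 6 below. CDPK1, a calcium-dependent protein kinase, was above at 939, 1613 and 719 in egg cells against 1954, 2026 and 2665 in zygotes. CIPK8, a kinase driven by calcineurin B-like sensors, was below at 1951, 1306 and 1686 in egg cells against 849, 260.1 and 961 in zygotes.

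For the lists that follow, the shares of all genes were 10.8 percent above and 10.4 percent below. The redox list had 5 of 66 above and 9 below, 7.6 and 13.6 percent. CAT-A, a catalase, was below at 2254, 10127 and 2353 in egg cells against 1315, 850.0 and 1511 in zygotes, and egg replicate 2 stood apart. Dimmer CAT-A probe sets overlapped. The brightest redox member, gRASC8, differed by 0.22 ± 0.21 as deposited and by -0.53 after quantile normalization. Its zygote arrays lay all above the egg arrays as deposited and all below them after it. The transporter list had 7 of 80 above and 7 below, and its brightest member HAK5, a potassium transporter, likewise went from 0.73 ± 0.24 to -0.27. The zygote arrays of HAK5 also went from all above to all below the egg arrays. The embryo and homeobox list had 2 of 42 above and 2 below, OsWOX13, a WUSCHEL-type homeobox factor, being above at 285, 251 and 244 in egg cells against 422, 456 and 302 in zygotes, and overlapping after quantile normalization, at 0.16. HOX7 was below at 639.7, 508 and 839.9 in egg cells against 435, 291 and 387 in zygotes. Another HOX7 probe set overlapped, with a difference of -0.11. Of 11 phenylpropanoid genes 1 was above, CCR1 (cinnamoyl-CoA reductase) at 229.7, 784 and 520.1 in egg cells against 2253, 1016 and 1205 in zygotes, and 1 below. None of the genes on any list passed the 6-array threshold in limma.

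**Figure D5:**
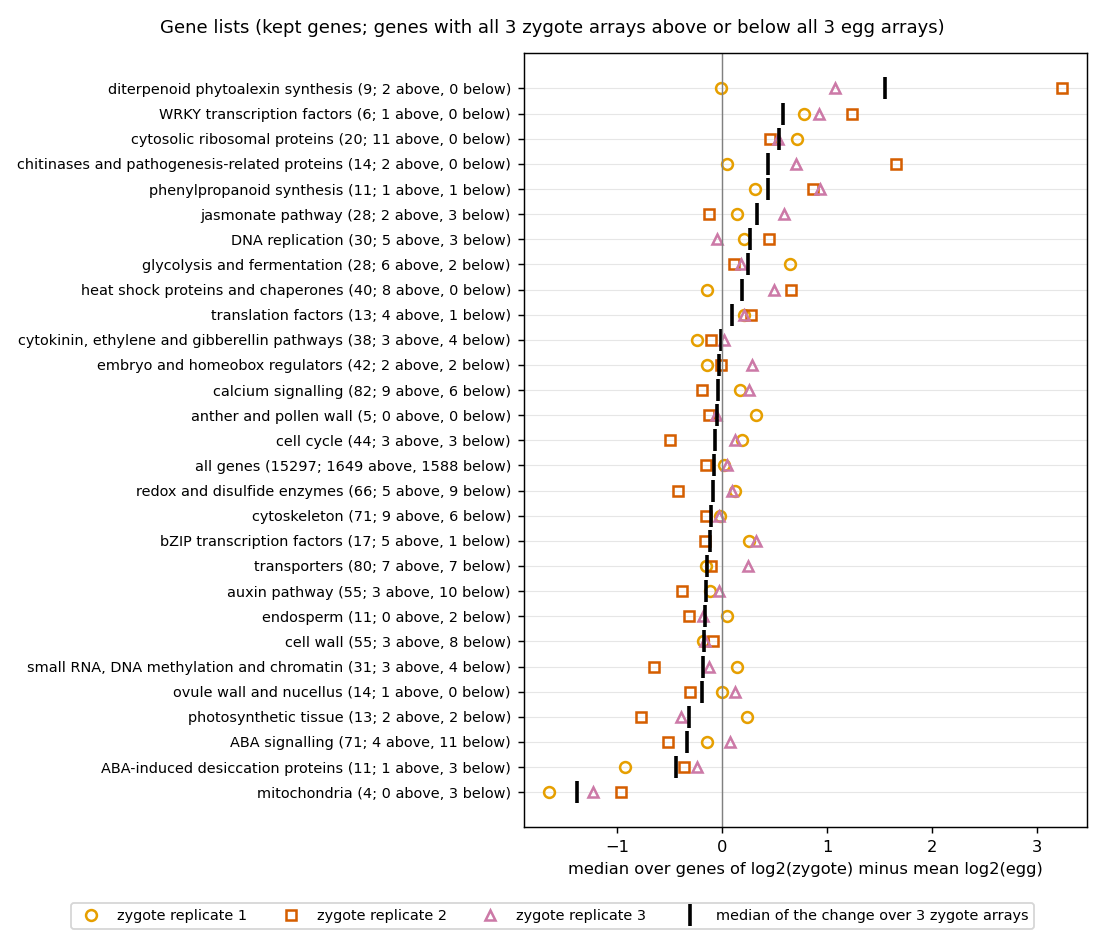
Median over the genes of each list of the log2 difference from the egg mean, in each zygote replicate (open symbols) and over the 3 (bar), with the number of genes and of genes above or below in every zygote array in the label. The 3 zygote arrays stand close together for ribosomal proteins (0.71, 0.45 and 0.53) and far apart for diterpenoid phytoalexin synthesis (-0.01, 3.23 and 1.07).

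The number of calls rested on how the unequal zygote arrays were treated. With array quality weights, which came out at 0.397, 0.180 and 1.23 for zygote replicates 1 to 3 and at 3.37, 0.977 and 3.45 for the egg arrays, limma called 422 probe sets higher, 1.48 percent, and 519 lower, 1.81 percent. Of these, 352 and 442 had non-overlapping groups, and 58 and 126 were at least 2-fold apart in each zygote array. Without zygote replicate 1, limma called 73 higher, 0.255 percent, and 86 lower, 0.301 percent, of which 56 and 66 had all 3 zygote arrays, the omitted array included, on that side of all egg arrays. Of those calls, 63 and 80 were also called with weights.

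Some genes that passed in these settings held in each zygote array and others did not. With weights, RAB21, Rf2, OsbZIP37, OsPDIL2-3 and RAB16B fell and TCTP, GOS2, TID1, FBA1, MET1, OsWRKY76 and CML27 rose (limma adjusted p from 0.00245 for RAB21 to 0.0432 for the dimmer CML27 probe set), and all of them held. Among the zygote arrays replicate 3 had the largest weight in this fit. The dimmer CML27 probe set had an egg mean under 100, where a probe set could be kept through its zygote signal. Without zygote replicate 1, Cht4 rose by 6.28 ± 0.57, chia4a by 5.44 ± 0.61 and PBZ1 by 4.29 ± 0.66 (limma adjusted p = 0.0208, 0.0224 and 0.0479), but none of these held in the omitted array. Cht4 and chia4a had egg means of 42.2 and 81.1, also in the range under 100. Cht4 and PBZ1 also passed with weights (limma adjusted p = 0.0440 and 0.0428). With all 6 arrays the differences of Cht4, chia4a and PBZ1 were 3.71 ± 1.78, 3.33 ± 1.49 and 3.07 ± 0.99. RAB21, by contrast, fell by 5.85 ± 0.79 without replicate 1 (limma adjusted p = 0.0379), close to its value with all arrays. It also passed with all 9 arrays in the fit, with no filter, with an offset of 100, without zygote replicate 2 and with the replicate block (limma adjusted p from 0.00807 to 0.0412), and Rf2 and OsPDIL2-3 also passed with all 9 arrays (limma adjusted p = 0.0337 and 0.0471).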

How the data were processed

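RNA from pooled egg cells and zygotes was measured on Affymetrix rice arrays. The deposited intensity values were made by the authors with MAS5, per the submitters' processing notes; its version was not given in the sources used here. Every array had a trimmed mean, without 2 percent at each end, of 500.1. Of 57381 probe sets, 187 for controls and reporters were dropped, and the 28597 of the remaining 57194 whose mean log2 signal was at or above the median were kept. Signals entered limma 3.58.1 (R 4.3.3) as log2(signal + 15), with lmFit, eBayes with a trend and Benjamini-Hochberg adjustment at 0.05. Only the 3 egg and 3 zygote arrays entered. A fold "on the offset scale" is a ratio of signal + 15. Probe sets were named through the array's annotation and RefSeq tables: 22436 had 1 gene, 95 had several and 34663 had none, and the brightest kept probe set stood for a gene in the gene lists.

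A difference held when all 3 zygote arrays lay above or below all 3 egg arrays. Named genes were, in each direction, the 12 of largest change past the threshold, filled from the smallest p where fewer passed, among non-overlapping probe sets of 1 gene with an informative symbol, up to 3 called genes without such a symbol, the brightest member and the 3 non-overlapping members of largest change in each list, and RAB21, Rf2 and OsPDIL2-3. Other genes, among them those at least 2-fold apart in each zygote array and those called only without zygote replicate 1, were chosen after their values were seen. The members and lists were chosen with earlier results of these data known. Same-numbered egg and zygote arrays did not deviate together (correlations of -0.010, 0.055 and -0.054), so the numbers were not taken as pairs. Alternatives were another offset, no filter, quantile normalization, no trend, array weights, all 9 arrays, the replicate block and leaving out each array. Arrays give no counts, so the number of arrays limits the precision. Scripts were tested on simulated data. Python 3.11.15 with pandas 2.3.3, numpy 2.4.6 and matplotlib 3.10.9 made the tables and plots.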

Additional observations from a re-analysis of the deposited data

How the results depend on the processing

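Against 0 probe sets higher and 2 lower in limma with the 6 arrays, array weights gave 422 higher and 519 lower, and leaving out 1 array gave 0 to 73 higher and 0 to 86 lower, the upper ends without zygote replicate 1. The lower calls numbered 20 with all 9 arrays in the fit, 8 with no filter, 7 with an offset of 100, and 0 with an offset of 1, with quantile normalization or without the trend; 0 were higher in each. With the replicate block there were 2 lower and 0 higher, the called probe set without a gene and RAB21 (limma adjusted p = 0.0412 for both, against 0.0711 for LOC4331282). Probe sets with all zygote arrays above all egg arrays numbered 9928 with no filter and 2578 after quantile normalization, and 4653 to 7779 when 1 array was left out, a setting added after seeing the data, which also gave 2948 to 5398 below. At 2-fold or more above there were 866 with no filter, 54 after quantile normalization, 412 with an offset of 1, 16 with an offset of 100 and 334 to 2383 with 1 array left out. At 2-fold or more below there were 256 after quantile normalization, 82 with an offset of 100 and 197 to 921 with 1 array left out; fewer arrays make a separation easier by construction. Quantile normalization turned HSP81-2 to -0.29, gRASC8 to -0.53 and HAK5 to -0.27. The groups of gRASC8 and HAK5 were apart under both scalings, in opposite directions, and those of HSP81-2 overlapped after it. Apart from the leave-one-out counts, the cause was not tested. Dim probe sets limit the higher side: 207 of the 231 held above had an egg mean under 100.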
